A study of Mus musculus with 6 samples.

Results

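The genes of the bone morphogenetic protein (BMP) and transforming growth factor beta (TGF-beta) pathway were followed in femoral RNA of ovariectomized mice. They were 39 genes, listed by symbol under a rule that uses no measured value: ligands, latency proteins, receptors, SMADs, ID targets and antagonists. All 39 were found among the 54532 genes of the deposited table, each at 1 row. Every sample in the labels is wild type and ovariectomized (OVX), which removes ovarian estrogen. The control group of 3 received saline, and another group of 3 received the ginger phenol zingerone, dosed orally at 100 mg/kg each day over 8 weeks. All values below come from the saline group, whose replicates are called libraries 1, 2 and 3. The 3 zingerone samples were not analysed here, because no column name of the table matched their library names, so no effect of zingerone was measured on any of these genes. The titles attach 8, 9 and 10 weeks to libraries 1, 2 and 3 without saying what the weeks count. No source used here gives the strain, the age or the animal behind each library, and differences between libraries may be technical in part. The protocol describes whole femurs ground to powder, whereas a characteristic names RAW264.7, a line of macrophage-like cells from mouse. Transcripts that such a line would lack were abundant, with the beta-globin gene Hbb-bs at 20397, 22806 and 26898 FPKM and the bone collagen gene Col1a1 at 614, 1597 and 364 FPKM in libraries 1, 2 and 3. Every level below is in FPKM, a read count divided by gene length and library size.

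BMPs, TGF-betas and activins are secreted dimers that bind pairs of type I and type II serine and threonine kinase receptors. TGF-beta and activin receptors phosphorylate SMAD2 and SMAD3, BMP receptors phosphorylate SMAD1, SMAD5 and SMAD9, and both sets enter the nucleus with SMAD4. TGF-beta is stored in bone matrix in a latent complex and released during resorption, and BMPs drive osteoblast and chondrocyte differentiation. SMAD6 and SMAD7 inhibit the pathway from inside the cell, and Noggin, Gremlin, Chordin and Follistatin bind ligands outside it.

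Of the 39 genes, 35 reached a mean of 1 FPKM over the 3 libraries and were tested. The other 4 were Acvr2b, Smad9, Chrd and Bmpr1b. The genes closest to that limit were Bmp7, at a mean of 1.0 FPKM just inside, and Acvr2b, at 0.619 FPKM just outside, and Bmp7 passed it only through library 2. Tgfb1 had the highest mean, 57.3 ± 3.05 FPKM (SD, n = 3), followed by Id3 at 53.2 ± 13.9, Id2 at 22.1 ± 0.881, Id1 at 20.4 ± 0.441 and the receptor gene Tgfbr2 at 19.0 ± 2.11. The lowest was Bmpr1b, at 0.0597 ± 0.0364 FPKM. The median of the 35 tested members was 4.47 FPKM, against 7.08 FPKM over all 14011 tested genes.

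**Figure D1:**
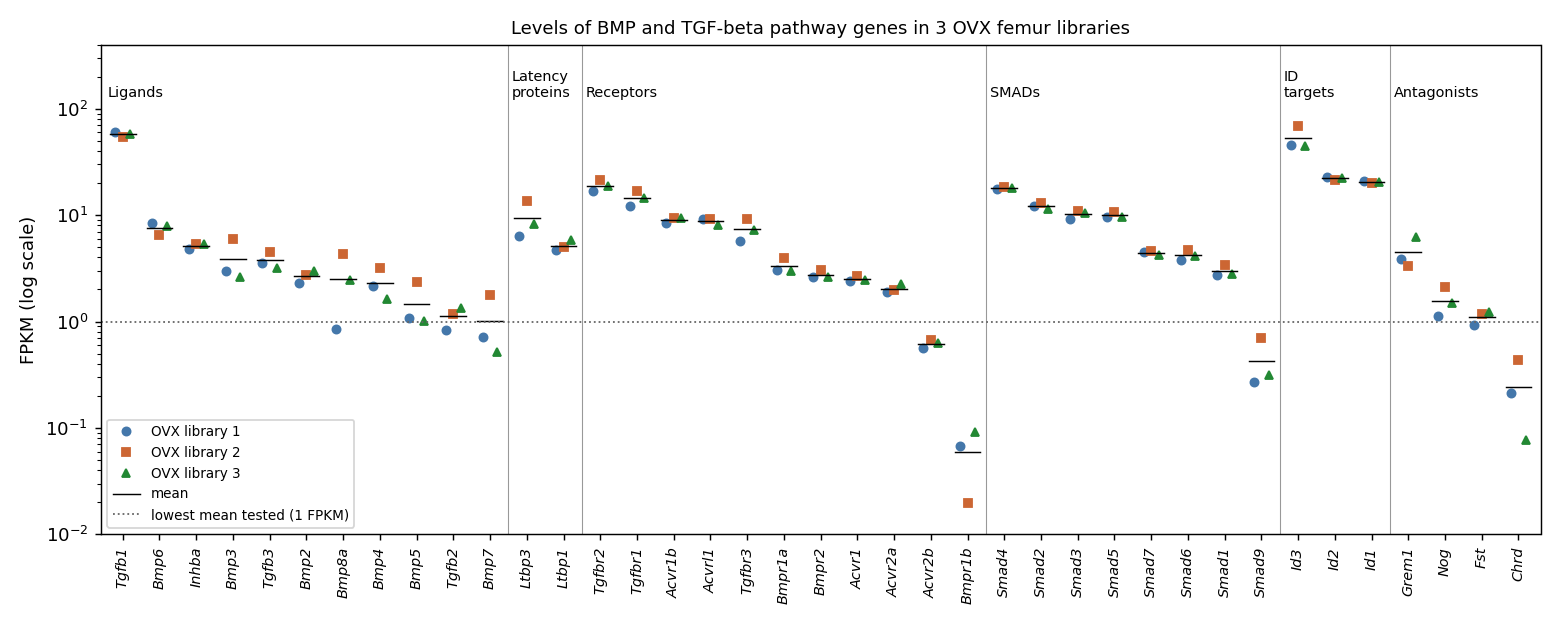
FPKM of the 39 pathway genes (log axis) in OVX libraries 1, 2 and 3, with the mean of the 3 libraries as a bar and genes ordered by mean within their role. Tgfb1 stands well above the other ligands, Id3 above Id2 and Id1, and 4 genes lie below the dotted line at a mean of 1 FPKM.

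The bases before the start sites of 5 members are shown because these genes mark contrasting patterns between libraries. They include the most abundant ligand (Tgfb1), and a latency protein and a ligand highest in library 2 (Ltbp3 and Bmp8a). The others are an antagonist highest in library 3 (Grem1) and an inhibitory SMAD that did not pass the test of reads between libraries (Smad6). Each sequence is the 250 bases before the RefSeq start site in build GRCm38.p6, 5′ to 3′ on the strand of the gene. None holds a base of a GENCODE M21 exon. Capitals mark matches on either strand to CAGAC, a core SMAD box, and to GGCGCC and GGAGCC, GC-rich boxes bound by BMP SMADs.
Tgfb1 (chr7:25686752-25687001, plus strand): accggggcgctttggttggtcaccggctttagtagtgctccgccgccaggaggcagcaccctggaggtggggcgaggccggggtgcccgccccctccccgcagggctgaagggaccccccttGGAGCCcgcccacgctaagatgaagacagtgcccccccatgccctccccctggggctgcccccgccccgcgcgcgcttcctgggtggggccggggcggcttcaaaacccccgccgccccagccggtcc
Ltbp3 (chr19:5740650-5740899, plus strand): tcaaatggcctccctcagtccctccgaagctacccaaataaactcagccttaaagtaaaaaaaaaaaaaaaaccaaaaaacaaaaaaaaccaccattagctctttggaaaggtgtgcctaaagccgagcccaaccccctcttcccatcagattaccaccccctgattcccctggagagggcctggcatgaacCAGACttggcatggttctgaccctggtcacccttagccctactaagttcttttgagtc
Bmp8a (chr4:123343253-123343502, minus strand): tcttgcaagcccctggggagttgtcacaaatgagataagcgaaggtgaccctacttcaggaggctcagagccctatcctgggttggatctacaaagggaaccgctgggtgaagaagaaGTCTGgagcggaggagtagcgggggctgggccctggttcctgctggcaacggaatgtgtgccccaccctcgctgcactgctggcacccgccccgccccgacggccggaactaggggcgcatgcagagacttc
Grem1 (chr2:113758649-113758898, minus strand): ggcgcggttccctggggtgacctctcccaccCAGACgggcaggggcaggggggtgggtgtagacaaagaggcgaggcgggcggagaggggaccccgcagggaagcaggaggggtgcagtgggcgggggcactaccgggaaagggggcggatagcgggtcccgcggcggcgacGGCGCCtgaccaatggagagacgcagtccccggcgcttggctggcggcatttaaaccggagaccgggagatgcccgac
Smad6 (chr9:64022060-64022309, minus strand): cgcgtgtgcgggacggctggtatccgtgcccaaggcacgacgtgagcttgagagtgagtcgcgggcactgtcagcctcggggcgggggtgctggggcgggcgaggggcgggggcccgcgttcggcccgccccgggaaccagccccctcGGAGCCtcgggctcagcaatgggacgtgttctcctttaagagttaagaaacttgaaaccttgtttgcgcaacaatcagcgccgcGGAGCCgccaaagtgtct

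Ltbp3, Bmp8a and Grem1 held 1 CAGAC match each, Grem1 also 1 GGCGCC match, Tgfb1 1 GGAGCC match and Smad6 2 GGAGCC matches. RefSeq windows were at hand for 27 of the 39 members, in 33 windows, against 32841 windows of all genes. CAGAC was in 48.5% of member windows and 42.2% of all windows, GGCGCC in 24.2% and 9.59%, and GGAGCC in 51.5% and 26.0%. The palindromic SMAD box GTCTAGAC was in 0 of 33 member windows and in 0.167% of all windows. Member windows were also richer in G and C, with a median of 63.6% against 52.4%, and the part of base composition in these shares was not tested. GGCGCC and GTCTAGAC read the same on both strands, and no searched motif contains another. A match describes letters in a window and not a bound site, and members with several start sites count more than once.

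Ligands, latency proteins and antagonists varied more between libraries than receptors, SMADs and ID genes did, as a median and without a test of that difference. For each gene a chi-square test asked whether its reads followed the sizes of the 3 libraries, with p-values adjusted over all tested genes (Benjamini-Hochberg) and called at 0.05. This test compares libraries of 1 group, not conditions, and calls genes with many reads more easily. By it 20 of 35 tested members (57.1%) differed between libraries beyond counting noise, against 38.7% of all tested genes. The counts were 9 of 11 ligands, both latency proteins, 5 of 9 receptors, 1 of 7 SMADs, 1 of 3 ID genes and 2 of 3 antagonists. Library 2 was the highest for 23 of 35 tested members (65.7%), against 34.8% of all tested genes. Library 1 was the highest for 5 (background 33.3%) and library 3 for 7 (31.9%). Of the 20 members that differed, 15 were highest in library 2 (42.9% of those tested, against 13.0% of all tested genes), 2 in library 1 (against 15.3%) and 3 in library 3 (against 10.4%). The counts for library 2 include Bmp7, which was tested only because of its level there. The lowest library was library 1 for 19 members (against 32.6%), library 2 for 5 (against 36.8%) and library 3 for 11 (against 30.6%). On the log2(FPKM + 1) scale the median difference of library 2 from the mean of the other libraries was 0.13 over the members and -0.00386 over all tested genes. The median variation between libraries beyond counting noise (as a CV) was 9.94% for the members and 5.12% over all tested genes. By role it was 20.6% for ligands, 25.0% for latency proteins, 27.4% for antagonists, 7.44% for receptors, 5.29% for SMADs and 2.21% for ID genes. Several of these groups are small, and the antagonist median is the value of Nog. Single genes went against the medians, such as Id3 at 26.0%, Tgfbr3 at 23.4%, Ltbp1 at 10.8% and Fst at 9.08%. Only 1 of 35 tested members (2.86%), Bmp8a, spanned at least 2-fold on that log2 scale, against 5.89% of all tested genes. This order depends on the 1 FPKM added, which narrows the range of low genes. With 0.1 FPKM added, 5 of 35 members and 1254 of 14011 tested genes spanned 2-fold, and the share of members was then the larger.

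Library 2 also differed from the others in its tissue markers. All 10 osteoblast, 6 osteoclast, 11 chondrocyte and 5 adipocyte markers were highest in library 2, and all 8 skeletal muscle markers were lowest there. The 6 megakaryocyte markers were also lowest in library 2, except that Gp1bb was equally low in library 3. Summed over each list, libraries 1, 2 and 3 held 2639, 6286 and 1849 FPKM of osteoblast markers, 397, 1102 and 830 FPKM of osteoclast markers, 25.0, 628 and 55.2 FPKM of chondrocyte markers, and 157, 314 and 103 FPKM of adipocyte markers. Osteocyte markers summed to 84.8, 134 and 106 FPKM, and 2 of those 5 were highest in library 2. Skeletal muscle markers summed to 1390, 115 and 906 FPKM and megakaryocyte markers to 1471, 971 and 1521 FPKM. Stromal, endothelial and neutrophil sums were level, with the highest library at 1.05, 1.03 and 1.09 times the lowest. The stromal sum was mostly Cxcl12, at 206, 210 and 216 FPKM, while Pdgfra of the same list was highest in library 2, at 3.58, 6.92 and 4.36 FPKM. Of all markers, Lep had 0 reads in library 3 and Gp1bb had 0 reads in libraries 2 and 3. In bulk RNA a different number of cells of a type and a different amount of RNA per cell cannot be told apart. The part of these markers in the differences between libraries described below was not tested.

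**Figure D2:**
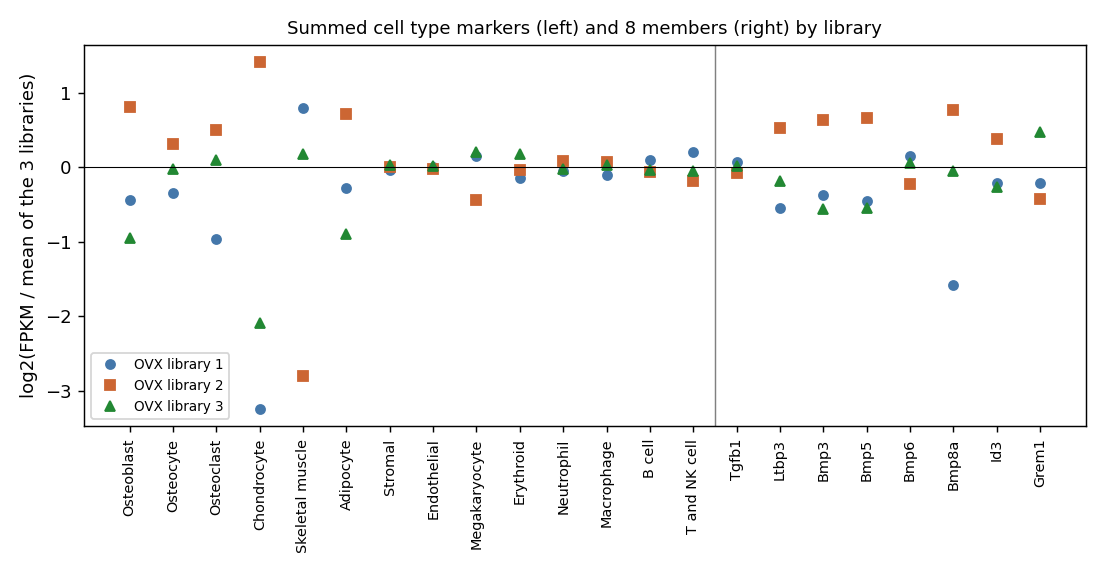
Summed FPKM of 14 cell type marker lists (left of the line) and FPKM of 8 pathway genes (right), each as log2 of the value over the mean of the 3 OVX libraries. Osteoblast, osteoclast, chondrocyte and adipocyte sums and the genes Ltbp3, Bmp3, Bmp5, Bmp8a and Id3 are highest in library 2 (squares), where muscle and megakaryocyte sums, Tgfb1, Bmp6 and Grem1 are lowest.

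Among TGF-beta ligands Tgfb1 took 92.1% ± 1.45 of the summed FPKM (SD, n = 3). Tgfb1, the isoform that bone matrix stores in the largest amounts, lies on mm10 chromosome 7 (25687002 to 25705077, plus strand) and ranked 840 among all listed genes by mean. Its 5240, 4593 and 4811 reads gave 60.1, 54.1 and 57.7 FPKM in libraries 1, 2 and 3. It was thus lowest in library 2, by a narrow margin that exceeded counting noise (the highest library was 1.11 times the lowest, chi-square adjusted p = 1.73e-08). Tgfb3 had 3.58, 4.53 and 3.18 FPKM, with library 2 the highest (adjusted p = 0.00456). Tgfb2 had 0.839, 1.17 and 1.34 FPKM, with library 1 the lowest (adjusted p = 0.0179). These smaller calls were lost without library 3, at an adjusted p of 0.0668 for Tgfb3 and 0.0904 for Tgfb2, and without library 2 for Tgfb3 (0.404) and library 1 for Tgfb2 (0.475). Within a library Tgfb1 was 15.6 ± 3.26 times as high as Tgfb3 and 53.7 ± 15.6 times as high as Tgfb2 (SD, n = 3). Inhba, which encodes the subunit of activin A, stood at 4.81, 5.32 and 5.34 FPKM and did not pass the test (adjusted p = 0.408).

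The latency proteins bind TGF-beta and anchor it in the matrix. Ltbp3 (chromosome 19, 5740904 to 5758532, plus strand) had 572, 1180 and 705 reads, or 6.38, 13.5 and 8.22 FPKM, in libraries 1, 2 and 3. Library 2 was 2.12 times as high as library 1 (chi-square adjusted p = 3.44e-52), and libraries 1 and 3 differed too (adjusted p = 4.76e-04). Ltbp1 (chromosome 17, 75005568 to 75392512, plus strand) was highest in library 3 instead, at 4.67, 5.04 and 5.81 FPKM (adjusted p = 2.22e-04, and 0.446 without library 3). The ratio of Ltbp3 to Ltbp1 was accordingly 1.37, 2.68 and 1.41 in the 3 libraries. That ratio depends on the listed gene lengths. The listed length of Ltbp3 is 5190 bases, while all its exons in GENCODE release M21 cover 9069 bases, a length at which its mean would be 5.36 FPKM in place of 9.36.

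The BMP ligands summed to 18.5, 26.7 and 19.0 FPKM in libraries 1, 2 and 3, and without Bmp6 to 10.1, 20.3 and 11.2 FPKM. Bmp6 (chromosome 13, 38345107 to 38500302, plus strand), which also controls hepcidin and iron in the liver, was the most abundant of the 7 in every library and took 45.5%, 24.1% and 41.2% of their sum. It was the only BMP ligand lowest in library 2, at 8.41, 6.44 and 7.83 FPKM from 567, 423 and 505 reads (chi-square adjusted p = 1.78e-04, and 0.343 without library 2). Over 224 bases its exons overlap those of Txndc5 on the other strand, so that reads of the pair cannot be told apart if strand was not used in counting.

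Bmp3, Bmp4, Bmp5, Bmp7 and Bmp8a were all highest in library 2 and passed the test. Bmp3 (chromosome 5, 98854415 to 98884396, plus strand), a BMP of bone that opposes the osteogenic BMPs, had 383, 747 and 321 reads, or 3.0, 5.99 and 2.62 FPKM (adjusted p = 3.53e-45). Libraries 1 and 3 did not differ by the test in Bmp3 (adjusted p = 0.162), and its call was lost without library 2. The same held for the osteogenic ligands Bmp4, at 2.16, 3.17 and 1.64 FPKM, Bmp5, at 1.08, 2.33 and 1.01 FPKM, and Bmp7, at 0.720, 1.77 and 0.512 FPKM, none of which differed between libraries 1 and 3 (adjusted p of 0.234, 0.784 and 0.281). Over all 3 libraries the adjusted p was 4.33e-04 for Bmp4, 2.45e-10 for Bmp5 and 1.35e-12 for Bmp7. Because Bmp7 reached the limit of 1 FPKM only through library 2, its place among the tested genes depends on that library. With no filter the adjusted p of the same chi-square test was 2.47e-12 for Bmp7.

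Bmp8a (chromosome 4, 123312645 to 123343252, minus strand) had the widest relative spread of the tested members. It stood at 0.842, 4.27 and 2.44 FPKM, from 35, 173 and 97 reads. The exact Poisson 95% intervals, which cover counting error only, ran from 0.587 to 1.17, from 3.66 to 4.96 and from 1.98 to 2.98 FPKM and did not overlap. Library 2 was 5.07 times as high as library 1 (chi-square adjusted p = 1.08e-19), and libraries 1 and 3 differed as well (adjusted p = 9.35e-07). Bmp8b, a closely similar gene on the same chromosome, had only 9, 5 and 6 reads, and reads that fit both genes may be split between them. Bmp2, a main inducer of osteoblast differentiation, did not pass the test, at 2.30, 2.72 and 2.96 FPKM (adjusted p = 0.199).

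**Figure D3:**
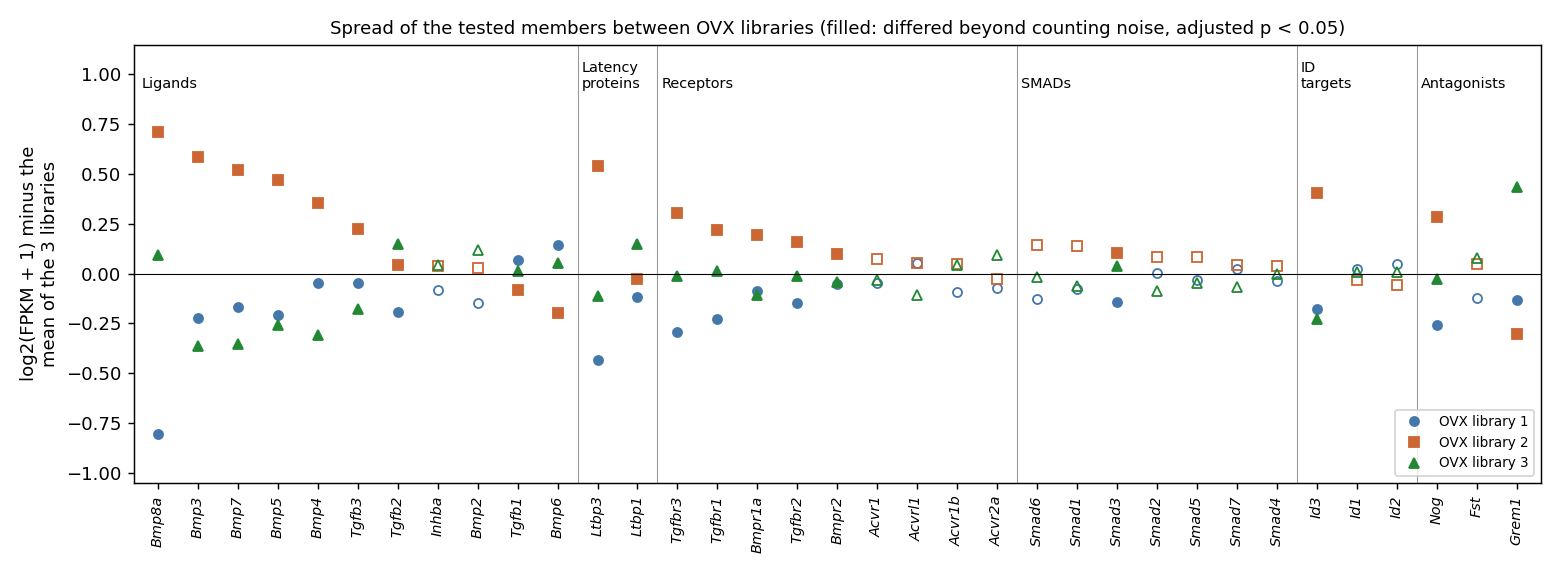
log2(FPKM + 1) of each tested pathway gene in the 3 OVX libraries, minus the mean of the 3, with filled symbols for genes that differed beyond counting noise. Library 2 (squares) lies at the top for 5 BMP ligands, Ltbp3 and Id3, while the 7 tested SMADs lie close to 0.

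All 4 TGF-beta and activin receptor genes were highest in library 2 and lowest in library 1, and 3 of them passed the test. Of all tested genes 34.8% were highest in library 2, 32.6% were lowest in library 1 and 38.7% passed. The share of all tested genes that were both highest in library 2 and lowest in library 1 was not counted. Tgfbr2 (chromosome 9, 116084293 to 116175360, minus strand), the type II receptor that binds TGF-beta, stood at 17.0, 21.2 and 18.7 FPKM in libraries 1, 2 and 3 (chi-square adjusted p = 2.89e-11). Its type I partner Tgfbr1 (chromosome 4, 47353222 to 47414931, plus strand) stood at 12.2, 17.0 and 14.6 FPKM (adjusted p = 4.08e-16). The coreceptor Tgfbr3, or betaglycan, stood at 5.76, 9.25 and 7.22 FPKM (adjusted p = 9.73e-18). The same order, with library 2 highest and library 1 lowest, held for the summed osteoclast, osteocyte, chondrocyte, macrophage and neutrophil markers. Single markers were mixed in all of these lists but the osteoclast list. Only 2 of 5 osteocyte, 2 of 5 macrophage and 4 of 7 neutrophil markers were highest in library 2. Of the 11 chondrocyte markers, 2 were lowest in library 3. The part of any cell type in the receptor levels was not tested. The ratio of Tgfbr2 to Tgfbr1 was nearly level at 1.30 ± 0.0749 (SD, n = 3). The activin type I receptor Acvr1b stood at 8.38, 9.34 and 9.30 FPKM and did not pass the test (adjusted p = 0.316).

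Of the 5 tested receptors on the BMP and shared type II side, 2 passed the test, a share near the 38.7% of all tested genes. Acvrl1, the ALK1 receptor of endothelial cells, was the highest of them at 9.19, 9.17 and 8.11 FPKM (chi-square adjusted p = 0.0705). Acvrl1 and Acvr1b are neighbours on chromosome 15, 28730 bases apart, and had similar means of 8.82 ± 0.616 and 9.01 ± 0.539 FPKM (SD, n = 3). Bmpr1a, the main BMP type I receptor of bone cells, stood at 3.04, 3.93 and 3.0 FPKM and was highest in library 2 (adjusted p = 0.00160, and 0.829 without library 2). Bmpr2, the type II receptor, stood at 2.62, 3.03 and 2.65 FPKM, also highest in library 2 (adjusted p = 0.0290, and 0.931 without library 2). Acvr1, at 2.40, 2.69 and 2.43 FPKM, and Acvr2a, at 1.89, 1.98 and 2.24 FPKM, did not pass the test. Bmpr1b, a receptor of cartilage progenitors, had 7, 2 and 9 reads. Its exact Poisson 95% intervals overlapped, from 0.0273 to 0.140, from 0.00241 to 0.0719 and from 0.0417 to 0.173 FPKM, so no difference was detectable at this depth. Acvr2b stood at 0.560, 0.665 and 0.631 FPKM. Tgfbr2 was 6.85 ± 0.332 times as high as Bmpr2 within a library (SD, n = 3).

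Among the SMADs, which carry the signal to the nucleus, Smad4, the common partner, had the narrowest spread of the 7 tested, at 17.4, 18.5 and 17.9 FPKM from 1118, 1155 and 1101 reads (chi-square adjusted p = 0.763). Library 2 was the highest for all 7 tested SMADs, against 34.8% of all tested genes. Only 1 of the 7 passed the test, against 38.7% of all tested genes. This was Smad3, at 9.10, 11.0 and 10.4 FPKM from 871, 1027 and 957 reads (adjusted p = 0.00410). The call for Smad3 was lost without library 1 (adjusted p = 0.483) and without library 2 (0.0549). Smad2 stood at 12.1, 12.9 and 11.3 FPKM (adjusted p = 0.115). The order of Smad2 and Smad3 depends on the listed lengths. Smad2 is listed with 3549 bases, while all its GENCODE M21 exons cover 8781 bases, at which its mean would be 4.89 FPKM in place of 12.1 and below that of Smad3.

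Smad5 was the leading SMAD of the BMP side, at 9.69, 10.6 and 9.60 FPKM (chi-square adjusted p = 0.111), and was 3.37 ± 0.192 times as high as Smad1 within a library (SD, n = 3). Smad1 stood at 2.76, 3.37 and 2.79 FPKM (adjusted p = 0.0691), and passed the test with the totals behind the deposited FPKM in place of the reads listed (adjusted p = 0.0452). Smad9, below the limit for testing, had 0.270, 0.697 and 0.315 FPKM from 25, 63 and 28 reads. Its exact Poisson 95% interval in library 2, from 0.535 to 0.891 FPKM, lay above those of library 1, from 0.174 to 0.398, and library 3, from 0.210 to 0.456. The inhibitory SMADs were close to each other, with Smad6 at 3.76, 4.74 and 4.13 FPKM and Smad7 at 4.52, 4.60 and 4.19 FPKM (adjusted p of 0.139 and 0.520). Their ratio, Smad7 to Smad6, was 1.06 ± 0.124 (SD, n = 3), and which was higher differed between libraries. Smad6 lies 195081 bases from Smad3 on chromosome 9.

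Id1, Id2 and Id3 encode inhibitors of basic helix-loop-helix factors and are classical targets of BMP signalling, used widely as its readout. The 3 genes did not move together between libraries. Id3 (chromosome 4, 136143497 to 136145755, plus strand) had 1424, 2090 and 1314 reads, or 46.0, 69.3 and 44.4 FPKM, in libraries 1, 2 and 3. It was highest in library 2 (chi-square adjusted p = 4.29e-44) and did not differ by the test between libraries 1 and 3 (adjusted p = 0.362). Id1 (chromosome 2, 152736251 to 152737410, plus strand) did not pass the test, at 20.8, 19.9 and 20.5 FPKM, with 416, 389 and 394 reads (adjusted p = 0.748), and its exact Poisson 95% intervals overlapped, from 18.8 to 22.8, from 18.0 to 22.0 and from 18.6 to 22.7 FPKM. Id2 (chromosome 12, 25093799 to 25097140, minus strand) had 22.9, 21.2 and 22.3 FPKM (adjusted p = 0.176). The ratio of Id3 to Id1 was therefore 2.22, 3.48 and 2.16, whereas that of Id2 to Id1 was 1.10, 1.06 and 1.08. Both Id1 and Id2 were lowest in library 2, where Id3 was highest.

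The secreted antagonists did not share a pattern either. Grem1 (chromosome 2, 113746164 to 113758646, minus strand), which binds BMP2 and BMP4, was highest in library 3 and lowest in library 2, at 3.88, 3.32 and 6.23 FPKM from 278, 232 and 427 reads (chi-square adjusted p = 2.95e-15, and 0.12 without library 3). Noggin, Nog, had 1.13, 2.10 and 1.50 FPKM from 33, 60 and 42 reads, highest in library 2 (adjusted p = 0.0423). The call for Nog was lost with no filter on low genes (adjusted p = 0.0656), without library 1 (0.23) and without library 2 (0.478). Fst, which encodes the activin binder follistatin, stood at 0.933, 1.18 and 1.23 FPKM (adjusted p = 0.344). Chrd, chordin, had 23, 46 and 8 reads, and its exact Poisson 95% interval in library 2, from 0.319 to 0.582 FPKM, lay above those in library 1, from 0.135 to 0.319, and library 3, from 0.0334 to 0.152. The lower bound in library 2 and the upper bound in library 1 were nearly equal.

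Without library 2, 9 of 35 tested members (25.7%) differed between libraries 1 and 3, against 18.2% of all tested genes. They were Tgfb1, Tgfb2, Ltbp1, Ltbp3, Bmp8a, Tgfbr1, Tgfbr2, Tgfbr3 and Grem1. All but Tgfb1 were higher in library 3. Thus 8 of 35 tested members both passed this test and were higher in library 3, against 7.00% of all tested genes. No member spanned 2-fold between these libraries on the log2(FPKM + 1) scale, against 1.91% of all tested genes. The 11 members that no longer passed were Tgfb3, Bmp3, Bmp4, Bmp5, Bmp6, Bmp7, Bmpr2, Bmpr1a, Smad3, Id3 and Nog.

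**Figure D4:**
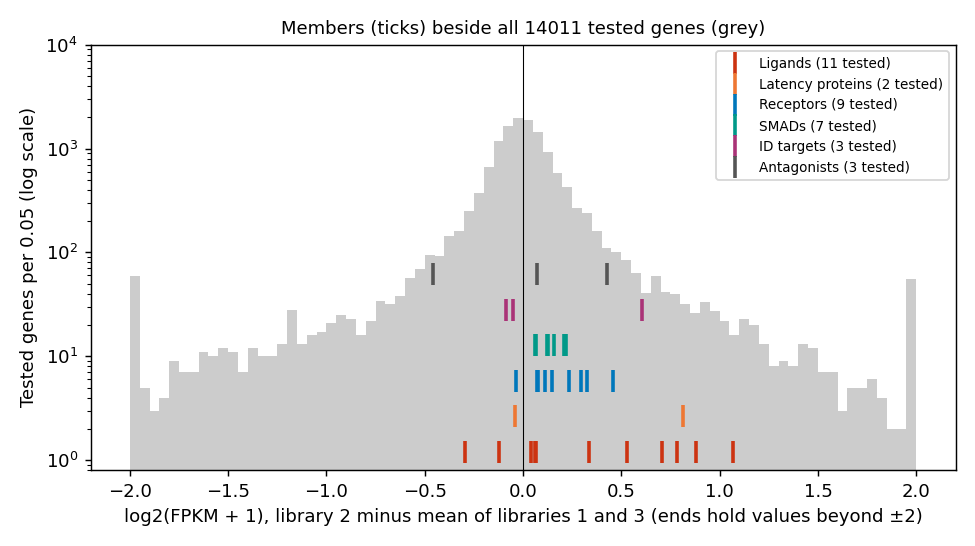
Number of tested genes (log axis, grey) by the difference of library 2 from the mean of libraries 1 and 3 in log2(FPKM + 1), with each tested pathway gene as a tick coloured by role. Ligand ticks reach from -0.29 for Bmp6 to 1.07 for Bmp8a, while SMAD ticks lie between 0.06 and 0.22.

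Other genes of the pathway were taken from a list of 69, of which 40 were tested. Of these 33 (82.5%) differed between libraries, against 38.7% of all tested genes, and 8 of 40 spanned 2-fold, against 5.89%. Of the 40, 21 passed and were highest in library 2, against 13.0% of all tested genes, 7 in library 1, against 15.3%, and 5 in library 3, against 10.4%. The share for library 1 was near its background. On the TGF-beta and activin side 18 of 22 tested genes passed, and on the BMP side 15 of 18. The TGF-beta activator Thbs1 was the most abundant of the list, at 87.3, 75.2 and 115 FPKM, lowest in library 2. Ctgf, now named Ccn2, a matricellular protein gene that TGF-beta induces, stood at 7.81, 56.3 and 22.1 FPKM. Tgfbi, a matrix adhesion protein gene that TGF-beta also induces, stood at 37.5, 42.9 and 40.6 FPKM. Both Ctgf and Tgfbi were highest in library 2 and lowest in library 1 and passed the test.

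All other genes of the list named here also passed the test. The osteoblast factor gene Sp7 had 7.24, 19.8 and 6.19 FPKM and its upstream activator Dlx5 had 1.94, 5.19 and 2.81 FPKM, and Bmp1, a protease that trims procollagen and chordin, stood at 6.25, 16.8 and 7.38 FPKM. Gdf10, a relative of Bmp3, had 1.03, 5.78 and 1.76 FPKM. These 4 genes were highest in library 2. The Wnt antagonist Sost, a gene of osteocytes, was lowest in library 2, at 36.5, 24.2 and 32.6 FPKM. Of the other osteocyte markers, Dmp1, at 17.4, 62.8 and 30.0 FPKM, and Phex, at 5.31, 13.0 and 5.70 FPKM, were highest in library 2, and Mepe and Fgf23 were highest in library 3. The stress cytokine Gdf15 was also lowest in library 2, at 5.66, 1.60 and 3.20 FPKM. Hfe2, now named Hjv, a BMP coreceptor gene expressed in skeletal muscle, had 9.90, 0.907 and 6.23 FPKM. Hfe2 had the same order of libraries as the summed muscle, B cell, and T and NK cell markers. The highest library was 12.1, 1.12 and 1.31 times the lowest in these sums. Genes of this list with a high mean and less than a 2-fold range included Nrros, which anchors latent TGF-beta on macrophages, at 31.8, 26.7 and 33.1 FPKM, lowest in library 2. Fstl1, a follistatin relative, stood at 21.2, 32.2 and 23.0 FPKM, Fkbp1a, which holds type I receptors inactive, at 19.4, 22.9 and 21.0 FPKM, the SMAD repressor Ski at 14.6, 16.5 and 15.1 FPKM, and the BMP binder Twsg1 at 10.0, 12.6 and 11.4 FPKM, all highest in library 2. The endothelial coreceptor gene Eng was highest in library 3, at 17.6, 19.2 and 21.0 FPKM.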

How the data were processed

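The series holds 1 table of RNA sequencing values from femurs of mice. Trimmomatic, FastQC, STAR and featureCounts, with build mm10, are named in the submitters' processing notes. No source used here gives versions, strandedness, the annotation or how FPKM was computed. The values the authors deposited are FPKM, beside a length for each gene. Columns were used where their names matched a library name in the labels, which held for the 3 OVX libraries; 3 further columns of values matched no label and were not used. The comparison of zingerone with OVX, planned with limma, and its alternatives were therefore not run.

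Reads per gene were recovered, because 100% of values times length were whole multiples of a step within 0.01 read: 17017907, 16964740 and 16581579 reads in libraries 1, 2 and 3. The totals behind the deposited FPKM were 1.02, 0.993 and 0.997 times these. The limit behind 0 reads is 3 reads (1.76e-05% to 1.81e-05% of a library). The chi-square test took genes from a mean of 1 FPKM upward and the reads listed as library sizes, with adjusted p-values called at 0.05, and 270 of 14011 tested genes had an expected count below 5 reads. Log values are log2(FPKM + 1), which understates differences of low genes. Intervals are exact Poisson at 95% and cover counting error only. The CV beyond counting noise subtracts the Poisson variance. The recovery of reads and the test were tested on simulated data.

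The members and lists were chosen with earlier results of these data known. The role groups, gene pairs, motifs, promoters shown and their 250 base windows were chosen after values had been seen. All members were named. Of the further pathway list, the 10 with the highest mean and those past the threshold with a 2-fold range were named; 2 of its symbols were matched by a RefSeq synonym. An item that this rule takes is not reported here. Tgfbi was grouped with Ctgf after its values were seen. Of the 39 member gene IDs, 39 were in GENCODE M21, 38 with the same start and end and 36 with the same exon length. Exons of 11 members overlap a gene on the other strand. Alternatives were other pseudocounts, filters, scalings and totals, each library left out with the tested genes held fixed, and, chosen after seeing the data, GENCODE lengths. Software was Python 3.11.15 with scipy 1.17.1, numpy 2.4.6, matplotlib 3.10.9 and pandas 2.3.3.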

Additional observations from a re-analysis of the deposited data

How the results depend on the processing

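The mean FPKM of all 39 members moved by less than 1 SD under median-of-ratios scaling, upper-quartile scaling and FPKM from the reads listed; leaving out 1 of 3 libraries cannot move a mean by 1 SD. GENCODE M21 lengths moved Ltbp3 and Smad2, as given above. Of 35 tested members 20 differed between libraries, and 21 with the totals behind the deposited FPKM, against 5418 and 5234 of 14011 genes. With no filter it was 21 of 39 members, against 6205 of 27755 genes. In that setting Smad9 and Chrd, untested in the main run, passed the test, and Nog did not. When the limit was raised to 5 FPKM it was 9 of 17 members, against 3787 of 8436 genes. The shares of members and of all genes lay closer together at that limit than in the main test. With 1 library left out the count ran from 9 to 17 for members and from 2552 to 4161, against 5418, for all genes. The lowest values came without library 2, and without library 1 the count for all genes was 3499. A 2-fold range was found in 825 genes, in 1254 and 247 on adding 0.1 and 5 FPKM before the log, and in 307 with the limit at 5 FPKM, with 267 to 596 when 1 library was left out (267 without library 2, 526 without library 1). For members it was 1 (Bmp8a), with 5 on adding 0.1 FPKM (Ltbp3, Bmp3, Bmp5 and Bmp7 too), 0 on adding 5 FPKM, 0 with the limit at 5 FPKM, and 0 to 1 when 1 library was left out, with 0 without library 1 and without library 2. No paired analysis was possible because only the OVX libraries could be tied to their labels. Depth limits Bmpr1b, Chrd, Smad9 and Nog, which rest on 2 to 63 reads per library. It also limits Acvr2b, with 38, 44 and 41 reads in libraries 1, 2 and 3. Bmp4, Bmp7 and Bmp8a had as few as 61, 34 and 35 reads in their lowest libraries.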
